A study of Mus musculus with 3 samples.

Results

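The genes described here are 9 genes of the erythroid programme, measured in RNA of splenic B cells from mice with allergic rhinitis. They are Hbb-bs, Hbb-bt, Hba-a1, Hba-a2, Alas2, Klf1, Slc4a1, Epb42 and Epor. They were chosen by name from the 27088 genes of the deposited table, and each name matched 1 gene. All 9 passed the filter on low values, which kept 18426 genes.

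Red blood cells are made from progenitors that need erythropoietin, a hormone that acts through the receptor Epor. The transcription factors Gata1, Tal1 and Klf1 then switch on globin chains, heme synthesis, iron uptake and the proteins of the red cell membrane. In mice the red pulp of the spleen also makes red blood cells, and its macrophages clear old ones. A sort for B cells is meant to leave such cells out.

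Both groups were female BALB/c mice aged 6 weeks at the start, and the sample labels give an age of 13 weeks. All were sensitized to ovalbumin (OVA) with 10 μg OVA and 2 mg Al(OH)3 on days 0, 7 and 14, and they received 100 μg OVA into the nose daily from day 21 to day 27 and again from day 29 to day 35. On days 0, 14 and 28 the PBS group was injected under the skin with PBS alone. The SJMHE1 group was injected on the same days with 10 μg of SJMHE1, a peptide from the heat shock protein HSP60 of the blood fluke Schistosoma japonicum, in incomplete Freund's adjuvant. The peptide and this adjuvant cannot be told apart. Mice were killed on day 36, B cells were sorted, and the samples of 3 mice were mixed, which left 1 library per group and no replicate check on any difference. The library of the Control group was not analysed here.

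The depth was 48267168 counts for PBS and 51280237 for SJMHE1, and the 50 most abundant genes held 17.1% of them in each. The B cell identity was plain in both libraries. FPKM, which scales counts by transcript length and by library size, was 4116 and 4284 for the immunoglobulin chain Ighm. The summed FPKM of the 15 B cell markers was 8488 with PBS and 8901 with SJMHE1. The 9 erythroid genes held 0.0156% of the counts in the PBS library (exact 95% binomial interval 0.0153% to 0.0160%) and 0.0203% in the SJMHE1 library (0.0199% to 0.0207%). All intervals here cover counting error only, and in bulk RNA fewer cells of a type and less RNA per cell cannot be told apart.

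All 9 erythroid genes were higher in the SJMHE1 library than in the PBS library. The differences ran from 1.14-fold for Slc4a1 to 2.40-fold for Epor. Their median log2 FPKM ratio, SJMHE1 to PBS, was 0.43, beside a median of -0.03 over all 18426 genes compared. A ratio above 0 was found for 9 of 9 erythroid genes and for 46.0% of all genes, and a counting interval wholly above 0 for 9 of 9 and for 25.7% of all genes. Centred on the B cell markers, 8 of 9 kept such an interval, and that of Epb42 included 0. Only Epor passed the threshold of a log2 ratio above 1, which 6.21% of all genes passed, and none of the 9 was below -1, where 9.18% of all genes lay. All 9 had at least 50 counts in at least 1 library, and among the 13999 genes with that many these shares were 2.65% and 4.50%. The 25.7% also covers genes with fewer counts, whose intervals are wide, so it is not matched to the 9. The 9 ratios lay between the 72.5th percentile of all genes, at Slc4a1, and the 95.5th, at Epor.

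**Figure D1:**
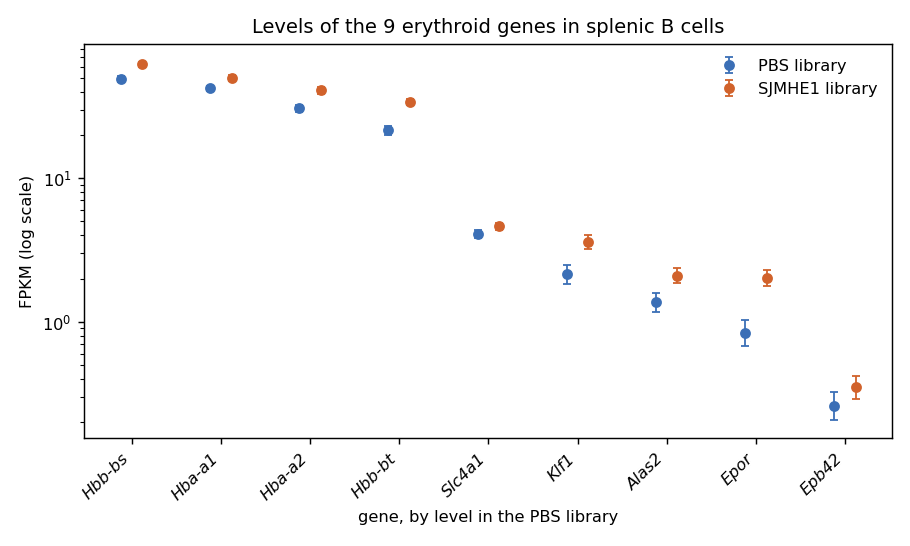
FPKM (log scale) of the 9 erythroid genes in the PBS library (blue) and the SJMHE1 library (orange), with bars for the exact 95% Poisson interval of each count. The order from Hbb-bs down to Epb42 was the same in both libraries, and each gene sat higher in the SJMHE1 library.

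Globins are the oxygen-carrying chains of hemoglobin, in which alpha chains pair with beta chains. The beta-globin gene Hbb-bs had an FPKM of 49.2 in the PBS library (2076 counts) and 62.3 in the SJMHE1 library (2779 counts). Its log2 ratio was 0.34 (95% counting interval 0.26 to 0.42). The other beta-globin gene, Hbb-bt, had an FPKM of 21.5 (832 counts) and 34.0 (1390 counts), with a log2 ratio of 0.66 (0.53 to 0.78). The intervals of these ratios did not overlap, so the beta-globin genes differed in the size of their change as counted.

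The alpha-globin gene Hba-a1 had an FPKM of 42.2 (1882 counts) with PBS and 49.9 (2357 counts) with SJMHE1. Its log2 ratio was 0.24 (0.15 to 0.33). Hba-a2, which encodes the same chain, had an FPKM of 30.6 (1123 counts) and 40.9 (1584 counts), with a log2 ratio of 0.42 (0.30 to 0.53). The alpha-globin intervals overlapped slightly.

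The split within each pair is uncertain, because reads are shared between the copies. Of all stretches of 50 bases in the reference transcripts, 53.2% of those of Hbb-bs also occur in Hbb-bt, and 89.3% of those of Hba-a2 also occur in Hba-a1. Within the coding sequence, including the stop codon, 443 of 444 bases are the same in the beta-globin pair and 428 of 429 in the alpha-globin pair. Counted from 1 at the A of the start codon, the differences are C417T from Hbb-bs to Hbb-bt and C381T from Hba-a1 to Hba-a2. The stretches around them are given from the GENCODE M21 transcripts, with the base that differs in capitals. In these reference sequences it is the only coding base that differs within a pair.

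Hbb-bs, bases 385 to 444: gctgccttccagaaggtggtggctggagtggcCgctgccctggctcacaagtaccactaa

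Hbb-bt, bases 385 to 444: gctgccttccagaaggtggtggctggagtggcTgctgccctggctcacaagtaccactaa

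Hba-a1, bases 351 to 410: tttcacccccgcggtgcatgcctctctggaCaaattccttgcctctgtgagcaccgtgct

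Hba-a2, bases 351 to 410: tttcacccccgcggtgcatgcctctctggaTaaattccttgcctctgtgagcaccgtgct

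The reference genome is that of C57BL/6J mice, which carry Hbb-bs and Hbb-bt. BALB/c mice carry another form of the locus, with the genes Hbb-b1 and Hbb-b2, so their reads were counted under the reference names and the beta-globin split is doubly uncertain. Sums avoid the split within a pair, but not any loss of reads that fit both copies or differ from the reference. The summed FPKM of the alpha-globin genes was 72.9 with PBS and 90.8 with SJMHE1, and that of the beta-globin genes was 70.8 and 96.3. The ratio of beta-globin to alpha-globin was 0.972 with PBS and 1.06 with SJMHE1. Hbb-bs was 2.29 times as high as Hbb-bt with PBS and 1.83 times with SJMHE1, and Hba-a1 was 1.38 and 1.22 times as high as Hba-a2. For scale, the B cell receptor gene Cd79a stood 17.0 times above Hbb-bs with PBS and 13.4 times with SJMHE1.

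Alas2 encodes the erythroid form of the enzyme that starts heme synthesis. It had an FPKM of 1.37 (183 counts) with PBS and 2.10 (296 counts) with SJMHE1. The log2 ratio was 0.62 (0.34 to 0.89). Alas2 lies within the gene Apex2, which runs on the opposite strand, and the sources used here do not state whether strand was used in counting, so reads from the pair cannot be told apart. Apex2 itself had 427 and 692 counts and a log2 ratio of 0.62 (0.44 to 0.79), the same size as that of Alas2.

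Klf1 is the erythroid Krüppel-like factor that activates adult beta-globin. Its FPKM was 2.15 (181 counts) with PBS and 3.60 (322 counts) with SJMHE1. The log2 ratio was 0.74 (0.48 to 1.02). After Epor, this was the largest ratio of the 9.

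Slc4a1 and Epb42 encode red cell membrane proteins. Slc4a1, which encodes the anion exchanger band 3, had an FPKM of 4.08 (1096 counts) with PBS and 4.64 (1319 counts) with SJMHE1. Its log2 ratio of 0.19 (0.07 to 0.30) was the smallest of the 9. Epb42, which encodes protein 4.2, a partner of band 3, had an FPKM of 0.26 (78 counts) and 0.35 (114 counts). Its log2 ratio of 0.43 had a wide interval (0.04 to 0.90), which ended close to 0, and its FPKM values are coarse since the table rounds them to 2 decimals.

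Epor, the erythropoietin receptor, had an FPKM of 0.84 (92 counts) with PBS and 2.02 (235 counts) with SJMHE1. It was 2.40-fold higher in the SJMHE1 library, with a log2 ratio of 1.27 (0.92 to 1.63). The lower end of the interval lay under the threshold, and the ratio was 0.71 when a pseudocount of 1 was added to the FPKM values. Hbb-bs was 58.6 times as high as Epor with PBS and 30.8 times with SJMHE1. The Epor interval overlapped that of Klf1 and lay above those of all 4 globin genes, Alas2, Slc4a1 and Epb42.

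**Figure D2:**
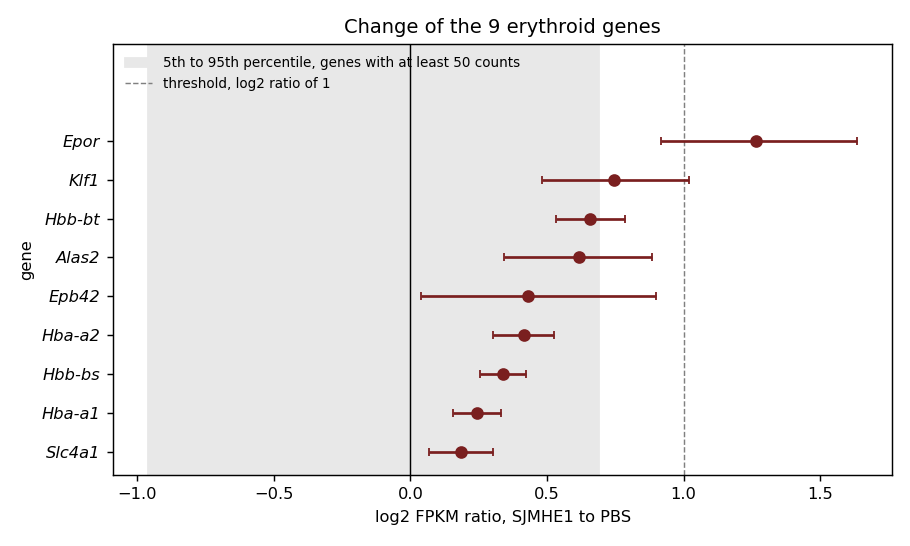
Log2 FPKM ratio, SJMHE1 to PBS, of the 9 erythroid genes with exact 95% counting intervals. The grey band is the 5th to 95th percentile of the 13999 genes with at least 50 counts in at least 1 library (-0.96 to 0.69), and the dashed line is the threshold. All intervals lay above 0. The ratios of Klf1 and Epor lay above the band, and the interval of Klf1 reached into it.

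The order of the levels was the same in both libraries. Hbb-bs was highest, followed by Hba-a1, Hba-a2, Hbb-bt, Slc4a1, Klf1, Alas2, Epor and Epb42. Neighbours in this order had separate Poisson intervals, with the exception of Alas2 and Epor in the SJMHE1 library, where FPKM was 2.10 (1.87 to 2.35) and 2.02 (1.77 to 2.30). In the PBS library the same genes were apart, at 1.37 (1.18 to 1.58) and 0.84 (0.68 to 1.03). Hbb-bt, the lowest of the globins, stood 5.28 times above Slc4a1, the highest of the other 5 genes, with PBS and 7.33 times with SJMHE1. The summed FPKM of the 5 other genes was 8.70 with PBS and 12.7 with SJMHE1.

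**Figure D3:**
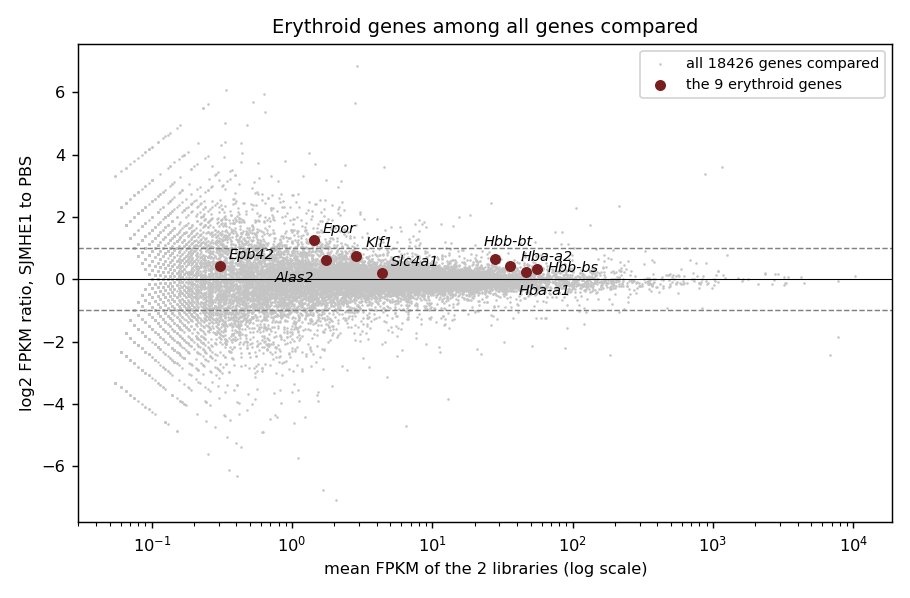
Mean FPKM of the PBS and SJMHE1 libraries (log scale) against the log2 FPKM ratio, SJMHE1 to PBS, of all 18426 genes compared (grey) and the 9 erythroid genes (dark red), with dashed lines at the thresholds of 1 and -1. The grey cloud widens towards low FPKM, and the erythroid genes lie on its upper side at every level.

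The genes lie on chromosomes 7 (Hbb-bs at 103826534-103827928 and Hbb-bt at 103812524-103813996, minus strand), 11 (Hba-a1 at 32283511-32284465 and Hba-a2 at 32296489-32297298, plus strand, and Slc4a1 at 102348824-102365280, minus strand), X (Alas2 at 150547375-150570638, plus strand), 8 (Klf1 at 84901928-84905295, plus strand), 2 (Epb42 at 121017891-121037072, minus strand) and 9 (Epor at 21958897-21963506, minus strand). These are the coordinates of the deposited table, whose build is mm10 per the submitters' notes. Apart from Alas2, none of the 9 overlaps another gene of the GENCODE M21 annotation.

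Promoter sequence was available for 8 of the 9 genes, all but Slc4a1, in RefSeq's GRCm38.p6 tables. The 250 bases before the start were searched on both strands for the letters that GATA factors prefer (AGATAA, with T also allowed as its first letter and G as its last) and for CCNCNCCC, a form of the CACCC box read by Krüppel-like factors. The GATA letters were present in 7 of the 8 promoters and in 26.5% of all 32851 promoters of the same length. The CACCC letters were present in 4 of the 8 and in 45.9% of all promoters. Both occurred in 3 of the 8, those of Hbb-bs, Alas2 and Epor, and in 8.19% of all. The promoters of Hba-a1 and Hba-a2 are identical over 247 bases, so they count as the same sequence found at 2 places. A match is a description of the letters and not of binding.

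The promoters of Hbb-bs, the most abundant of the 9, of Hba-a2, and of Epor, the gene with the largest ratio, follow with the matches in capitals. The start is that of RefSeq, which differs from the gene coordinates above for several of the genes. Counted from it, the GATA letters begin at -210 in Hbb-bs, -186 in Hba-a2 and -54 in Epor. The CACCC letters begin at -93 in Hbb-bs and at -124, -122, -28 and -26 in Epor, where neighbouring matches overlap.

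Hbb-bs, chr7:103827929-103828178, minus strand: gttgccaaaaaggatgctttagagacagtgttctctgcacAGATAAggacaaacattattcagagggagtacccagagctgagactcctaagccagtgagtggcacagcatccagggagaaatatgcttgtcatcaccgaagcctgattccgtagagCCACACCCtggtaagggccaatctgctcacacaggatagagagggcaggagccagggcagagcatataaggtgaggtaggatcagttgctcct

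Hba-a2, chr11:32296242-32296491, plus strand: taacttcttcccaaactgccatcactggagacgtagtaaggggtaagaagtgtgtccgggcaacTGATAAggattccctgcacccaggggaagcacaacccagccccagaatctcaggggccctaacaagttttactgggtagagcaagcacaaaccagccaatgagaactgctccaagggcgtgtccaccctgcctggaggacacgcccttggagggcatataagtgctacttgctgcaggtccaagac

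Epor, chr9:21963577-21963826, minus strand: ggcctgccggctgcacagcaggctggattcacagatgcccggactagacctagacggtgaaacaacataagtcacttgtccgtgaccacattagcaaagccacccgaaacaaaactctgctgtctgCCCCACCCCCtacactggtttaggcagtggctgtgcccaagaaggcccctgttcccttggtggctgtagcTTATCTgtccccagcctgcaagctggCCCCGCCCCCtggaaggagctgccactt

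Beyond the 9 genes, 7 further lists of erythroid genes were read by role. Of their 110 gene names, which include some other names of genes also listed, 100 were in the table and 96 passed the filter. Of these 96, 62 were higher in the SJMHE1 library and 34 were lower, with a median log2 ratio of 0.11, which was 0.05 when centred on the B cell markers and 0.06 when FPKM had to reach 1 in both libraries. Among the 92 with at least 50 counts in at least 1 library, 12 had a ratio above 1 and 3 had a ratio below -1. The same shares over all 13999 genes with that many counts were 2.65% and 4.50%, and 46.0% of all genes compared were higher. The 12 genes above 1 were membrane, transcription factor, iron and enzyme genes with an FPKM of at most 4.56, whereas the 3 below -1 were all from the list of erythropoietin receptor signalling. Nfe2, Gata2, Dmtn, Trim58, Cr2, Pf4 and the genes that complete counts of 5 or fewer in the lists fell outside the naming rule. They were chosen after their values were seen.

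Of the other globins, Hbq1b, a theta-globin gene, was the only member of its list in the table. It had 0 counts with PBS and 7 with SJMHE1. This is 2.20-fold higher when the 3 counts that a count of 0 allows are put in its place. The counting interval of its log2 ratio began at 0.45.

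In heme synthesis, 12 of 14 genes were higher in the SJMHE1 library, beside 46.0% of all genes. None passed the threshold in either direction. The median was 0.21. The most abundant were Tmem14c, a mitochondrial porphyrin transporter, with an FPKM of 35.7 and 37.3, the enzyme Alad with 26.9 and 28.0, and the enzyme Ppox with 13.2 and 14.9. The 2 lower genes were Slc25a39, with a log2 ratio of -0.32, and Glrx5, with -0.04. No gene of the list had a ratio as large as that of Alas2, at 0.62, although the intervals of several overlapped its interval.

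Iron supply was uneven. Of 11 genes, 7 were higher, beside 46.0% of all genes, and 4 lower. The median was 0.28, or 0.18 with a pseudocount of 1 and 0.06 when FPKM had to reach 1 in both libraries. Steap3, the reductase that frees iron in the endosome of erythroid cells, had an FPKM of 0.28 (88 counts) with PBS and 1.09 (365 counts) with SJMHE1. Its log2 ratio of 1.96 (1.63 to 2.32) was the largest of all the erythroid genes compared. Tfr2, a transferrin receptor that associates with Epor, had an FPKM of 0.54 (130 counts) and 1.15 (294 counts), with a log2 ratio of 1.09 (0.79 to 1.40). Slc25a37, the mitochondrial iron importer, had an FPKM of 35.2 and 42.7 and a log2 ratio of 0.28. The ferritin chains, which store iron in every cell, were the most abundant of the list and were lower. Ftl1 had an FPKM of 428 and 362 (log2 ratio -0.24) and Fth1 had 261 and 226 (-0.21). The other lower genes were Trf, with a log2 ratio of -0.64, and Slc25a28, with -0.06.

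With 16 of 21 genes higher, beside 46.0% of all genes, the red cell membrane and skeleton had the highest median of the lists, at 0.76. It was 0.40 with a pseudocount of 1 and 0.24 when FPKM had to reach 1 in both libraries. Of the 19 genes with at least 50 counts, 5 were above 1 and none was below -1, beside 2.65% and 4.50% of all genes with that many. Rhd, the Rh blood group protein, had an FPKM of 1.78 (156 counts) with PBS and 4.56 (422 counts) with SJMHE1, a log2 ratio of 1.36 (1.09 to 1.63). Kel, the Kell blood group protein, had an FPKM of 1.26 and 2.95, a log2 ratio of 1.23 (0.97 to 1.46). Some genes of the skeleton under the membrane moved by similar amounts. Ank1, the ankyrin that ties band 3 to the skeleton, had a log2 ratio of 1.23 (1.07 to 1.40), and Add2, an adducin, had 1.09 (0.85 to 1.32).

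These ratios stood apart from that of Slc4a1, the band 3 gene of the same membrane complex, at 0.19 (0.07 to 0.30). The most abundant genes of the list are used widely outside red cells and had small ratios, with -0.21 for Add1, -0.19 for Slc2a1 and 0.11 for Epb41. The other 3 lower genes were Mpp1 (-0.13), Gypc (-0.08) and Tmod1 (-1.49, on 31 and 12 counts). Dmtn, a further skeleton gene, had a log2 ratio of 0.27 (-0.04 to 0.58).

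The erythroid transcription factors did not move together. Gata1 had an FPKM of 0.97 (131 counts) with PBS and 2.16 (306 counts) with SJMHE1, a log2 ratio of 1.15 (0.84 to 1.45). Tal1 had an FPKM of 0.76 (182 counts) and 1.79 (458 counts), a log2 ratio of 1.24 (0.998 to 1.51). Gfi1b, a repressor needed for red cell and platelet formation, had an FPKM of 0.86 (87 counts) and 2.25 (242 counts), a log2 ratio of 1.39 (1.03 to 1.76). The other genes of the list held the median of all 14 at -0.07, with 5 of 14 higher, beside 46.0% of all genes, and 9 lower. Lmo2 and Ldb1, partners of Tal1, and its relative Lyl1 were abundant in these B cells. They had FPKM values of 91.3 and 86.1, 45.8 and 46.7, and 44.7 and 44.4, with log2 ratios of -0.09, 0.03 and -0.01. Of the other genes with low levels, Nfe2 had an FPKM of 1.87 (309 counts) and 1.13 (199 counts), a log2 ratio of -0.73 (-0.98 to -0.46), and Gata2 had 0.25 (75 counts) and 0.13 (43 counts), a log2 ratio of -0.94 (-1.46 to -0.32). Besides Ldb1 and the 3 above the threshold, Bach1 was higher, at 0.04. Runx1t1 had 0 counts in both libraries.

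The genes around the erythropoietin receptor did not follow Epor. Of 15 genes of its signalling, 6 were higher, beside 46.0% of all genes, and 9 lower. The median was -0.24 (-0.13 with a pseudocount of 1), and none was above 1. The genes below -1 included feedback inhibitors and targets of the JAK-STAT5 pathway. Cish had an FPKM of 0.96 (339 counts) with PBS and 0.27 (103 counts) with SJMHE1, a log2 ratio of -1.83 (-2.13 to -1.48). Socs1 had an FPKM of 1.19 (191 counts) and 0.40 (70 counts), a log2 ratio of -1.57 (-1.95 to -1.13). Pim1, a kinase, had an FPKM of 90.9 and 38.3, a log2 ratio of -1.25 (-1.29 to -1.21), and Erfe, the erythroid hormone that lowers hepcidin, had -1.50 on 27 and 10 counts. Ptpn6 and Lyn, abundant in B cells, had log2 ratios of 0.32 and 0.11. These pathway genes serve cytokine receptors of many cell types. The 15 T cell markers were all lower in the SJMHE1 library, with a median of -1.88 and a summed FPKM of 89.7 with PBS and 42.2 with SJMHE1, and their part in these values was not tested.

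Among red cell enzymes and genes of late maturation, 16 of 21 were higher, beside 46.0% of all genes. The median was 0.11. It was 0.05 when centred on the B cell markers or when FPKM had to reach 1 in at least 1 or in both libraries. Pklr, the pyruvate kinase of red cells and liver, had an FPKM of 1.06 (190 counts) and 2.68 (505 counts), a log2 ratio of 1.34 (1.08 to 1.58). Tspo2, an erythroid membrane protein related to the transporter TSPO, had an FPKM of 0.19 (34 counts) and 0.52 (98 counts), a log2 ratio of 1.45 (0.87 to 2.05). Trim58, a ubiquitin ligase of late erythroid cells, had 0 counts with PBS and 31 with SJMHE1. With 3 counts in place of the 0 it was 9.73-fold higher, and the counting interval of its log2 ratio began at 2.90. Carbonic anhydrase Car2 had an FPKM of 18.9 and 30.5, a log2 ratio of 0.69 (0.62 to 0.76), and the widely expressed Cat and Rnf123 had log2 ratios of 0.04 and 0.11. The 5 lower genes were Bpgm (-0.23), Car1 (-0.14), Optn (-0.08), Ube2o (-0.06) and Blvrb (-0.05), of which Car1 and Bpgm are abundant in mature red cells.

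**Figure D4:**
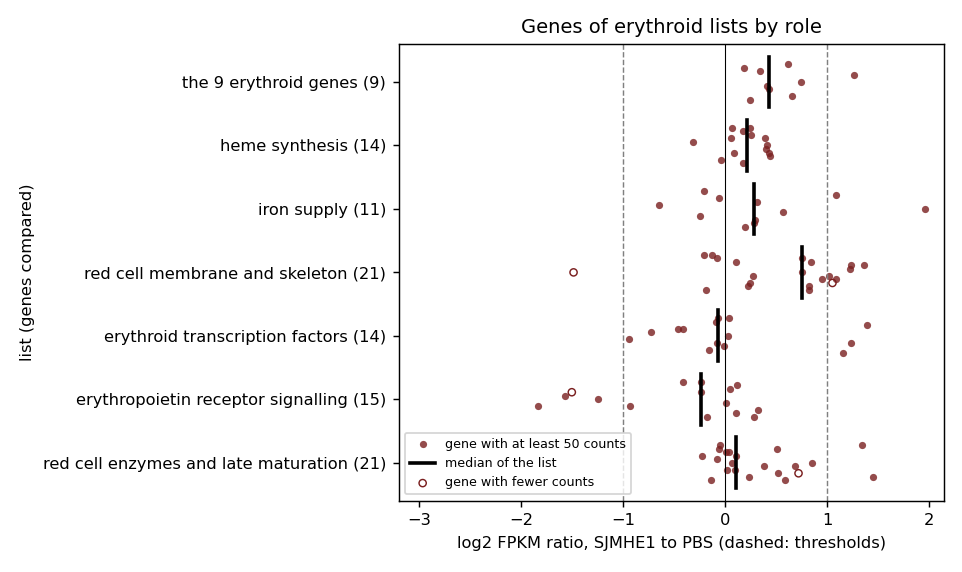
Log2 FPKM ratio, SJMHE1 to PBS, of the genes compared in the 9 erythroid genes and 6 further lists, with filled points for genes with at least 50 counts in at least 1 library, open points for genes with fewer, and black bars for medians. Membrane and skeleton genes gather on the right, with a median of 0.76, and the erythropoietin receptor signalling genes reach furthest to the left.

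The annotation terms of the deposited table are broader than the lists. For erythrocyte development, 16 of the 21 genes compared outside the 9 were higher, beside 46.0% of all genes, with a median of 0.15. Erythrocyte differentiation, with 2 of the 9 included, had 25 of 42 higher and a median of 0.04, or -0.02 when ratios were centred on the B cell markers. Its genes past the threshold with at least 50 counts were Tal1 and Gata1 above it and Gata3 (-2.79) and Plcb1 (-1.74) below it. Gata3 is best known as the master regulator of type 2 helper T cells. The heme biosynthetic process had 11 of 17 genes higher and a median of 0.06.

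Markers of other cell types were read beside these results, since a sort can hold other cells. Over all genes compared, 46.0% were higher in the SJMHE1 library. Of the genes with at least 50 counts in at least 1 library, 2.65% were above 1 and 4.50% below -1. Among 17 macrophage markers, listed as red pulp although not all are particular to it, 12 were higher in the SJMHE1 library. Their median was 0.24, and their summed FPKM was 40.4 with PBS and 40.0 with SJMHE1. Those above 1 were Cd5l (0.78 and 2.77 FPKM, log2 ratio 1.83), C1qc (1.20) and C1qb (1.01), and those below -1 were Siglec1 (-1.32) and Marco (-2.87, on 23 and 4 counts). The most abundant of them, Cd68 and Hmox1, had log2 ratios of -0.90 and 0.24. Neutrophil markers were split, with 7 of 15 higher, a median of -0.03 that became 0.02 under DESeq2 size factors, and a summed FPKM of 484 and 563. S100a9 had an FPKM of 196 and 266, and Ngp 105 and 84.3.

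Of 13 megakaryocyte and platelet markers, 5 passed the filter, with a median of 0.38 (0 without the filter) and a summed FPKM of 12.8 with PBS and 16.5 with SJMHE1. Most of that sum was Itgb3, with 10.9 and 14.2, followed by Gp1ba with 0.59 and 1.02. Gp6 and Treml1 had 0 counts in both libraries, and the platelet chemokine gene Pf4 had 3 and 8 counts. NK cell markers were lower in 10 of 10, with a median of -1.48 and a summed FPKM of 21.8 and 8.78, and dendritic cell markers in 9 of 10, with a median of -0.90 and a summed FPKM of 24.4 and 17.9. Plasma cell markers were lower in 8 of 9, with a median of -0.27 and a summed FPKM of 672 and 565. B cell markers were higher in 10 of 15, with a median of 0.06. The furthest from 0 was Cr2, a complement receptor, with an FPKM of 136 and 218 and a log2 ratio of 0.68 (0.67 to 0.69). The part of these cells in the erythroid values was not tested.

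**Figure D5:**
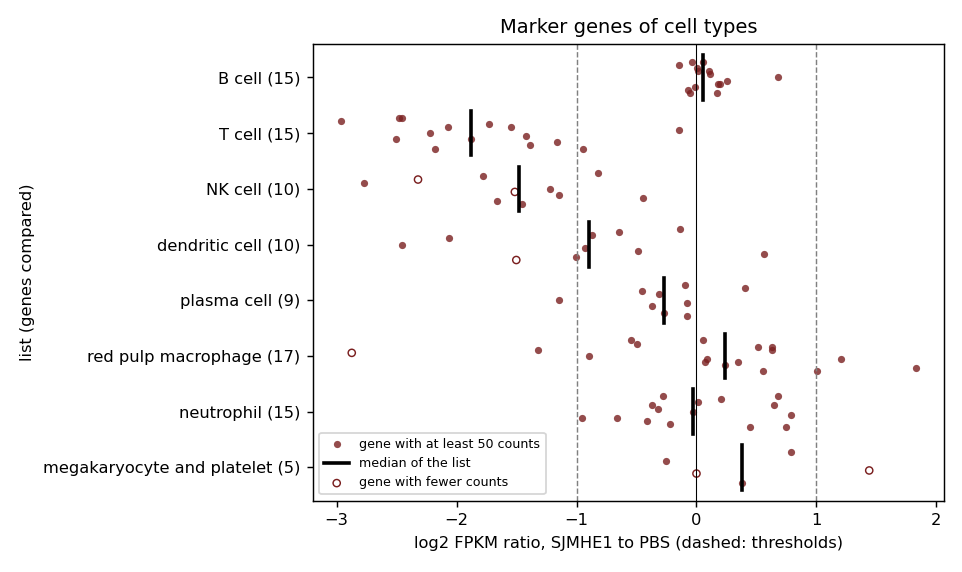
Log2 FPKM ratio, SJMHE1 to PBS, of marker genes of 8 cell types, with points and bars as in the plot of the erythroid lists. B cell markers have a median of 0.06, with Cr2 at 0.68, and all T cell and NK cell markers lie to the left. The macrophage markers, labelled red pulp although not all are particular to it, spread to both sides.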

How the data were processed

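RNA of sorted splenic B cells was sequenced after rRNA removal and random priming, with 1 library of 3 mixed mice per group. The counts deposited by the authors are raw whole numbers of reads per gene. In the deposited FPKM, the authors scaled these counts by gene length and library size and rounded the values to 2 decimals, so low values are coarse. FPKM is listed at 0 although reads were counted for 291 genes (PBS) and 312 genes (SJMHE1). The submitters' processing notes name bcl2fastq 2.0, HISAT2, StringTie, DESeq2 and limma, without versions for the last 4, and the build mm10. Strand use in counting is not given in the sources used here. A further 2 columns of values carry a name that fits no sample and were left unused. The samples' groups were taken from their titles.

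The log2 ratio of FPKM, SJMHE1 to PBS, was taken without a pseudocount wherever FPKM was above 0 in both libraries and reached 0.1 in at least 1, and a gene counted as called past a log2 ratio of 1 in either direction. A test that needs replicates could not be fitted to 1 library per group, so there are no p-values. The counting interval of a ratio is an exact 95% interval (Clopper-Pearson) from its counts, shifted by the median difference between FPKM and count ratios (-0.08) of genes with at least 500 counts in both libraries. Intervals of FPKM levels are exact Poisson intervals. A count of 0 allows 3 counts, or 0.0622 and 0.0585 counts per 1000000 in the PBS and SJMHE1 libraries. The calculation was tested on simulated Poisson counts only, which hold no spread between mice. FPKM recomputed from counts and the GENCODE M21 exon length was 1.14 to 1.15 times the deposited value for the 9 genes with PBS and 1.13 to 1.17 times with SJMHE1. The deposited coordinates are those of GENCODE M21 for 6 of the 9.

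Named are the 9 genes and, in each erythroid list, the 3 most abundant genes and every gene past the threshold with at least 50 counts in at least 1 library. In marker lists they are the 2 most abundant genes and defining genes at 0. Some genes that this rule names are not reported here. The 9 genes and all lists were chosen with earlier results of these data known. Alternatives were pseudocounts of 0.1 and 1, scaling by the library sum, edgeR and DESeq2 scaling of the counts, centring, other filters and other choices of genes. The work used R 4.3.3 (DESeq2 1.42.0, edgeR 4.0.16) and Python 3.11.15 (scipy 1.17.1, pandas 2.3.3, numpy 2.4.6, matplotlib 3.10.9).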

Additional observations from a re-analysis of the deposited data

How the results depend on the processing

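Each of the 9 erythroid genes stayed higher in the SJMHE1 library under all 8 other scales, with log2 ratios of 0.13 to 0.23 for Slc4a1, 0.10 to 0.51 for Epb42 and 0.71 to 1.32 for Epor. The median of all genes moved by at most 0.06 from its value of -0.03. It ran from -0.08 when centred on the B cell markers to 0.01 with DESeq2 size factors. The share of all genes above 0 was 40.0% and 51.6% under these scales. With a pseudocount of 1, Epor fell below the threshold (0 erythroid genes above 1), as did all genes of the 7 further lists (0 genes), and 100 genes of the whole table were above 1 and 146 below -1. With a pseudocount of 0.1 these were 645 and 955. When FPKM had to reach 1 in at least 1 library, 302 genes were above 1 and 444 below -1. When it had to reach 1 in both libraries they were 101 and 151, with 5471 genes above 0 and 3 genes of the further lists above 1. Protein-coding genes alone gave 342 and 721. A minimum of 50 counts in at least 1 library, chosen after the data were seen, gave 371 and 630. Fewer genes enter under these filters.

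No paired analysis was possible because there was only 1 library for each group. The comparisons with the Control library were not run. Of the medians of the lists, 269 values stayed within the counting interval of the middle genes and 33 moved beyond it. Genes with few counts, such as Epb42, and the split within the globin pairs limit what the depth can show.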
